A study of Mus musculus with 4 samples.

Results

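The 10 genes described here encode MHC molecules and proteins that present antigen: H2-K1, H2-D1, B2m, Tap1, Tap2, Tapbp, H2-Aa, H2-Ab1, Cd74 and Ciita. They were chosen by name and found by gene symbol in the deposited table, 10 of 23756 genes, by a rule that uses no measured value, although the list was proposed with earlier results of these data known. The 4 RNA-seq libraries came from 32Dcl3-Abl1ko cells, 2 from cultures kept on IL-3 (Abl1ko/IL3+) and 2 from cultures that grew without it (Abl1ko/IL3-), and the question was which genes differ between these states. 32Dcl3 is a murine bone marrow line that depends on IL-3, a cytokine that keeps myeloid progenitors alive and dividing. All 4 libraries carry the Abl1 knockout label, so the comparison concerns IL-3 and not the knockout, and cells without the edit were not analysed here. Abl1, which encodes a tyrosine kinase, had been edited with CRISPR/Cas9 from a lentiviral vector under puromycin selection, and the study worked with single clones. Cells without IL-3 were those that grew out after gradual withdrawal, so loss of the cytokine and outgrowth of a selected population cannot be told apart. The labels do not say which clone or guide a library came from. The series describes the duplicates as biological, and no source used here says what a replicate number marks, so the p-values measure the spread between these samples only.

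MHC class I molecules show peptides from inside the cell to cytotoxic T cells. Their heavy chains (H2-K1, H2-D1) pair with beta-2-microglobulin (B2m) and are loaded in the endoplasmic reticulum, where Tap1 and Tap2 form the peptide transporter and tapasin (Tapbp) bridges it to the empty class I molecule. MHC class II molecules (the alpha chain H2-Aa and the beta chain H2-Ab1) show peptides from endosomes to helper T cells, with the invariant chain Cd74 guarding the groove until loading, and their transcription needs the coactivator Ciita, which binds no DNA itself but sits on the factors of the X and Y boxes. In myeloid cells class I genes are broadly on, while class II genes are mostly kept for macrophages and dendritic cells.

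The promoters are shown first because the class I and class II genes share boxes there. A promoter sequence from RefSeq (build GRCm38.p6, 250 bases before to 50 bases after a start site) matched 6 of the 10 genes, B2m, H2-K1, H2-D1, H2-Aa, Tap1 and Tapbp. The 200 bases before the start site are printed 5′ to 3′ for the 4 genes that encode chains of MHC molecules. They lie at chr2:122147487-122147686 on the plus strand for B2m, chr17:34000348-34000547 on the minus strand for H2-K1, chr17:35262894-35263093 on the plus strand for H2-D1 and chr17:34287824-34288023 on the minus strand for H2-Aa. Capitals mark matches to the motifs searched on both strands.
B2m: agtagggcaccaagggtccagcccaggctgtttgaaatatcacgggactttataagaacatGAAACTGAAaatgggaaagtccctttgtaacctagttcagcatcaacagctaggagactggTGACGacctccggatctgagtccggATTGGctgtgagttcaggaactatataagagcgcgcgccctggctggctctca
H2-K1: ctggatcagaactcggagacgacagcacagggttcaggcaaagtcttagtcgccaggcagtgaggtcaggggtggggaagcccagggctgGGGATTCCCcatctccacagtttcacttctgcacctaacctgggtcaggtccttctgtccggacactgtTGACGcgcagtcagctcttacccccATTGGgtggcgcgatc
H2-D1: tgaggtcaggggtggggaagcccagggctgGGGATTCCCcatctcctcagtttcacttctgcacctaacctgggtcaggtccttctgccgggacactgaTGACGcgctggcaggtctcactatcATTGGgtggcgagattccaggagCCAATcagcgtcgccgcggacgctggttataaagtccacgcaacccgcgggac
H2-Aa: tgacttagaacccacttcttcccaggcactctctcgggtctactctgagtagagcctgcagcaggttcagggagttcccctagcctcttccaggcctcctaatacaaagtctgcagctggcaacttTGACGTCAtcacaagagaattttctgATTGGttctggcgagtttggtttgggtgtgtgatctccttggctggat

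The motifs were CCAAT (the core of the Y box, bound by NF-Y), TGACG (the core of the X2 box, bound by CREB family factors), GAAANNGAA (an interferon response core), TTCNNNGAA (a gamma-activated site) and GGGATTCCC (a kappa B site). CCAAT was present in the promoters of 6 of 6 genes, and in 37.4% of all 32851 mouse promoters of the same length. TGACG was present in 5 of 6 (all but Tapbp), and in 20.8% of all promoters. In the printed windows TGACG is followed on the same strand by ATTGG, the reverse complement of CCAAT, with first bases 25 bases apart in B2m, H2-K1 and H2-D1 and 26 bases apart in H2-Aa. This spacing was looked at after the matches had been seen, and it occurs in 54 of the 32851 promoters (0.164%), which belong to 47 genes. GGGATTCCC was found in H2-K1 and H2-D1, and in 0.353% of all promoters. GAAANNGAA was found in B2m alone among the 6, against 8.56% of all promoters. TTCNNNGAA was found in 0 of 6, against 8.30%. TGACG and CCAAT do not overlap in any of the printed windows, and in H2-Aa a match on each strand overlaps to form the run TGACGTCA. A match describes the letters and not a bound site. A missing match to a fixed pattern does not show that an element of that kind is absent, since variants of it were not searched.

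**Figure D1:**
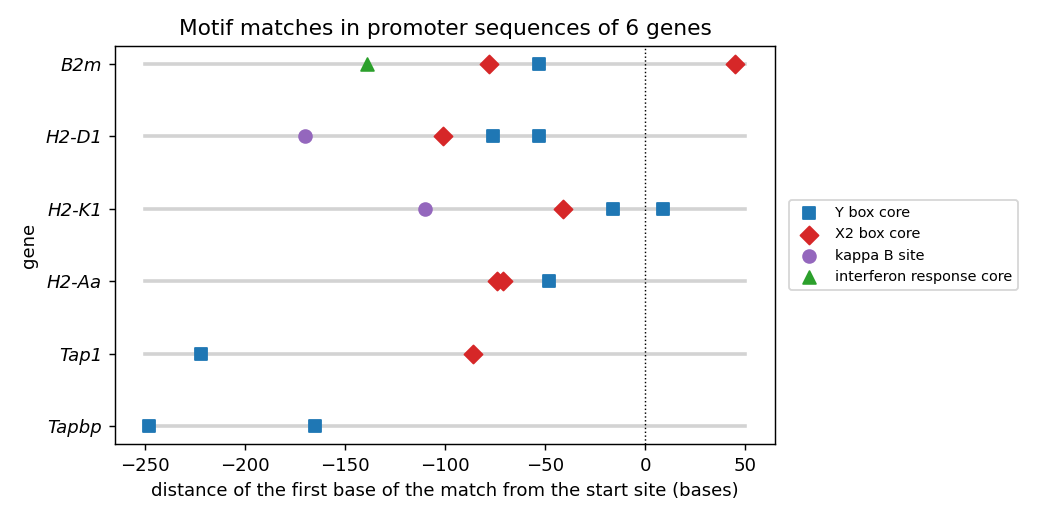
Motif matches in the promoter sequences of 6 genes, with the distance of the first base of each match from the start site on the x axis (bases) and 1 line per gene spanning the sequence searched. For H2-K1 1 of its 2 annotated starts is drawn. In B2m, H2-D1, H2-K1 and H2-Aa an X2 box core lies 25 or 26 bases before a Y box core.

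Library totals ranged from 48953174 to 60382588 counts, so that 3 counts, taken as the floor, corresponded to 0.0497 to 0.0613 CPM (counts scaled to the library total). The libraries of a group correlated with r = 0.91 with IL-3 and 0.944 without IL-3 in log2 CPM. Abl1 itself was detected in each library, at 1322 and 2222 counts in the libraries with IL-3 and 1544 and 2256 in those without, and gene counts cannot show small edits. The label calls the cells pre-B cells. The 7 B cell markers found summed to 19.0 to 26.1 CPM, with Cd79b at 607 to 1044 counts, Cd79a at 43 to 635 and Vpreb1 at 57 to 157, while Rag1 and Ms4a1 had at most 4. By comparison, 8 myeloid progenitor and granulocyte markers summed to 1590 to 2980 CPM, led by Mpo with 28978 to 121109 counts. The 6 macrophage markers found summed to 331 and 61.4 CPM with IL-3 and to 101 and 219 CPM without. Dendritic cell markers summed to 0.589 to 2.02 CPM and T cell markers to 0.59 to 5.44 CPM, both highest in Abl1ko/IL3- replicate 2.

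In these cells the class I genes of the list were detected in every library, and the class II chains H2-Aa and H2-Ab1 were close to 0. By mean FPKM (fragments scaled to gene length and library total) over the 4 libraries, B2m stood first at 528, followed by Tap2 at 127, Tapbp at 20.7, H2-D1 at 18.8, Tap1 at 12.1, Cd74 at 7.45 and H2-K1 at 2.18. Ciita at 0.185, H2-Aa at 0.0494 and H2-Ab1 at 0.00486 closed the order. The ranges over libraries did not meet between B2m and Tap2, between Tap2 and Tapbp, or between H2-K1 and Ciita, and every other pair of neighbours overlapped. Of the 10 genes, 9 passed the filter on low counts, and H2-Ab1 did not. Outside the list, the class II chain genes H2-Ea-ps and H2-Eb1 had mean FPKM of 2 and 0.0341. They were named after their values had been seen.

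**Figure D2:**
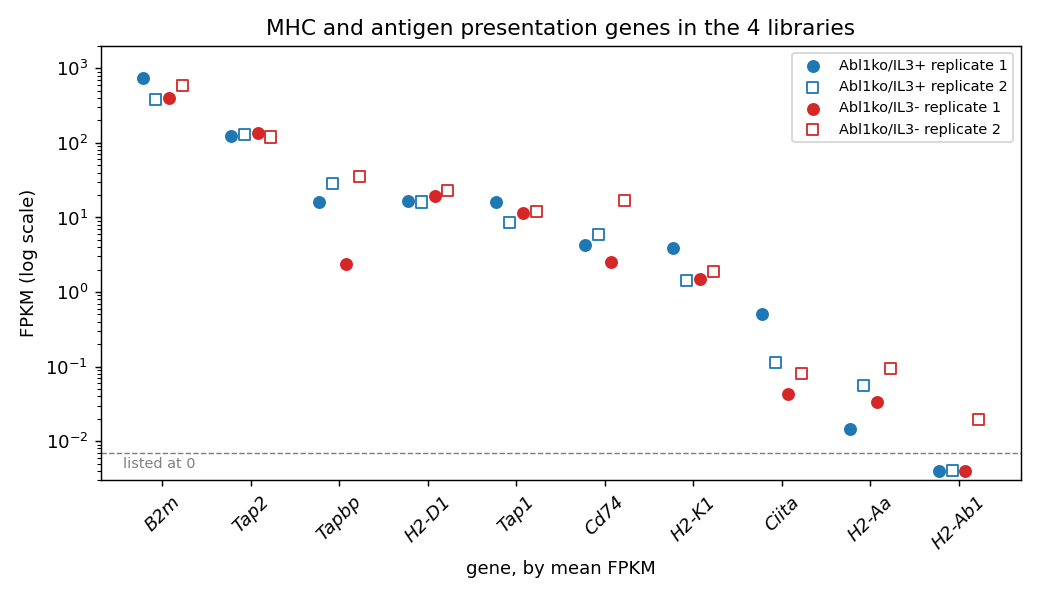
FPKM (log axis) of the 10 genes in the 4 libraries, ordered by mean, with circles for replicate 1 and squares for replicate 2, blue with IL-3 and red without. Libraries listed at 0 are drawn under the dashed line. B2m stands between 379 and 739 in all libraries, Tapbp and Cd74 differ most between the libraries without IL-3, and H2-Ab1 is listed at 0 in 3 of 4.

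None of the 9 genes tested passed an adjusted p of 0.05 between the groups. edgeR's quasi-likelihood test called 0 of 16535 genes (0%) at that threshold, with a lowest adjusted p of 0.335, while 978 genes (5.91%) had an unadjusted p under 0.05. Of the 9 genes, Ciita was the one with an unadjusted p under 0.05. DESeq2, an alternative, called 271 genes (1.64%), none of them among the 10. The median log2 fold change, without IL-3 over with IL-3, was -0.05 over the 9 genes and -0.03 over all genes tested, and without Abl1ko/IL3+ replicate 1 these medians were 0.11 and 0.06. Groups that did not overlap were seen for 1 gene higher (H2-D1) and 1 lower (Ciita) of 9, where 19.4% and 17.9% of all genes tested did so. An exact permutation test on 2 against 2 cannot give a two-sided p under 0.333. In bulk RNA, fewer cells of a type and less RNA per cell cannot be told apart.

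**Figure D3:**
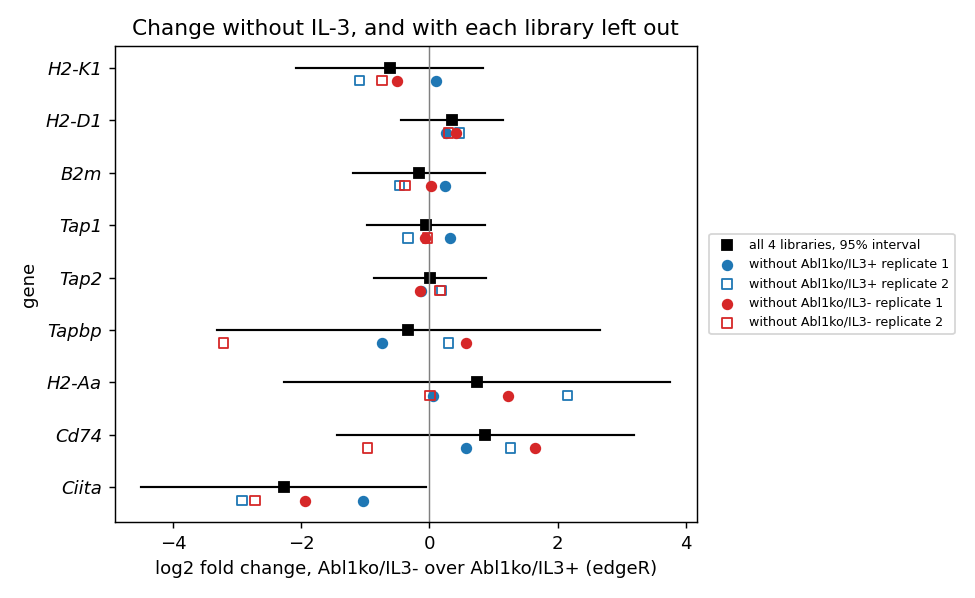
Log2 fold change, Abl1ko/IL3- over Abl1ko/IL3+, of the 9 genes tested (edgeR), as black squares with 95% intervals, and as coloured markers with 1 library left out each time. All intervals but that of Ciita include 0, and for H2-K1, B2m, Tap1, Tap2, Tapbp and Cd74 leaving out 1 library turns the sign.

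H2-D1 (chr17:35262730-35267499, plus strand), a classical class I heavy chain, had 44.3 and 52.0 CPM with IL-3 and 58.7 and 64.1 CPM without. Both libraries without IL-3 were above both with it. The means were 48.2 ± 5.45 and 61.4 ± 3.80 CPM (SD, n = 2 each), and the log2 fold change was 0.35 (SE 0.31, 95% interval -0.44 to 1.14, edgeR adjusted p = 0.928), which did not pass the test. The value stayed between 0.26 and 0.47 when any 1 library was left out. H2-K1 (chr17:33996017-34000347, minus strand), the other classical heavy chain of the list, had 12.0 and 5.30 CPM with IL-3 and 5.16 and 6.12 CPM without. Abl1ko/IL3+ replicate 1 stood above the other 3 libraries, which lay close together. The log2 fold change was -0.62 (SE 0.57, interval -2.08 to 0.84, edgeR adjusted p = 0.933), and it was 0.11 without that library.

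Per length, H2-D1 exceeded H2-K1 in every library. The ratio of their FPKM was 4.22 in Abl1ko/IL3+ replicate 1 and 11.3, 13.1 and 12.0 in the other 3. Stretches of 50 bases shared with transcripts of other genes made up 9.6% of H2-K1 and 12.8% of H2-D1. They were shared with 25 and 168 other genes, and the 3 genes sharing most with each were class I genes. The 32D line comes from a mouse strain whose H2 haplotype differs from that of the reference genome, and how these 2 conditions bear on the levels of either gene was not tested.

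B2m (chr2:122147686-122153083, plus strand), the light chain that every classical class I molecule needs, had 661 and 407 CPM with IL-3 and 409 and 545 CPM without. The groups overlapped, and the highest and the lowest library were both with IL-3. The log2 fold change was -0.16 (SE 0.40, interval -1.19 to 0.87, edgeR adjusted p = 0.982). B2m shared no stretch of 50 bases with another gene. B2m FPKM was 20.9 to 44.7 times that of H2-D1 and 189 to 307 times that of H2-K1.

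The transporter subunits did not share a level. Tap1 (chr17:34187553-34197225, plus strand) had 92.1 and 59.0 CPM with IL-3 and 73.7 and 72.0 CPM without. The libraries without IL-3 lay between those with it, and the log2 fold change was -0.05 (SE 0.36, interval -0.97 to 0.86, edgeR adjusted p = 0.996). Tap2 (chr17:34203527-34216321, plus strand) had 484 and 607 CPM with IL-3 and 608 and 491 CPM without. Here too the groups overlapped, and the log2 fold change was 0.01 (SE 0.34, interval -0.86 to 0.89, edgeR adjusted p = 0.999). The FPKM of Tap2 was 7.61 to 14.9 times that of Tap1. Antisense genes cover part of the exons of Tap2 (Gm15821 14.1% and Gm20496 4.4%), whether strand was used in counting is not stated in the sources used here, and their part in the level of Tap2 was not tested.

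Tapbp (chr17:33915899-33926197, plus strand), the tapasin gene, had the widest gap between 2 libraries of a group among the members tested. It had 61.3 and 127.9 CPM with IL-3 and 10.2 and 140.4 CPM without. Abl1ko/IL3- replicate 1 was the lowest library and Abl1ko/IL3- replicate 2 the highest, 13.8-fold apart, against 2.09-fold with IL-3. The log2 fold change was -0.33 (SE 1.16, interval -3.32 to 2.66, edgeR adjusted p = 0.99), and it ran from -3.21 without Abl1ko/IL3- replicate 2 to 0.57 without Abl1ko/IL3- replicate 1. The Tapbp level was 0.0173 times that of Tap2 in FPKM in Abl1ko/IL3- replicate 1 and 0.132 to 0.298 times in the others. An antisense gene, Gm19412, covers 24.9% of Tapbp exon bases, and its part in these values was not tested. Hspa5, the endoplasmic reticulum chaperone BiP, was also lowest in that library, with 467 and 448 CPM with IL-3 and 93.5 and 787 CPM without.

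Ciita (chr16:10480059-10526426, plus strand), the master coactivator of class II genes, was counted 322 and 74 times with IL-3, and 23 and 48 times in the absence of IL-3. Its CPM was 5.00 and 1.36 with IL-3, and 0.481 and 0.827 in the libraries without it, so both libraries without IL-3 were below both with it. The log2 fold change was -2.28 (SE 0.86, interval -4.50 to -0.06), with an unadjusted p of 0.0462 and an adjusted p of 0.841 in edgeR's quasi-likelihood test, which did not pass. The libraries with IL-3 were 3.67-fold apart, and without Abl1ko/IL3+ replicate 1 the log2 fold change was -1.04 (unadjusted p = 0.206, edgeR). The unadjusted p was also above 0.05 with library size alone (0.0572, edgeR), with the replicate number as a block (0.104, edgeR) and with limma on log2(FPKM + 1) and log2(FPKM + 0.1) (0.143 and 0.114). Abl1ko/IL3+ replicate 1 also had the highest sum of macrophage markers, 331 CPM, whose part in the Ciita values was not tested. Adgre1, Cd68 and C1qb had their highest counts there (12931, 4774 and 1104). Csf1r was highest in Abl1ko/IL3- replicate 2 (3711 against 2501 counts). C1qc was highest in Abl1ko/IL3+ replicate 2 (80 against 46), and C1qa had at most 12.

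Cd74 (chr18:60803848-60812646, plus strand), the invariant chain, was the one class II gene of the list with a level above 1 FPKM in all libraries. It had 7.54 and 12.3 CPM with IL-3 and 5.04 and 31.1 CPM without. The libraries without IL-3 lay on both sides of those with it and were 6.17-fold apart. The log2 fold change was 0.87 (SE 0.90, interval -1.45 to 3.18, edgeR adjusted p = 0.94), and it was -0.96 without Abl1ko/IL3- replicate 2. Ciita was highest in Abl1ko/IL3+ replicate 1 and Cd74 in Abl1ko/IL3- replicate 2, so the coactivator and this class II gene did not peak in the same library.

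The class II chains of the list, H2-Aa and H2-Ab1, were near the limit of detection. H2-Aa (chr17:34282744-34287823, minus strand) was counted 4 and 15 times with IL-3, and 8 and 23 times in its absence. Its groups overlapped, and the log2 fold change was 0.74 (SE 1.17, interval -2.27 to 3.76, edgeR adjusted p = 0.972). It was 0.0048 without Abl1ko/IL3- replicate 2, 0.05 without Abl1ko/IL3+ replicate 1 and 2.15 without Abl1ko/IL3+ replicate 2. H2-Ab1 (chr17:34257689-34269419, plus strand) had 0 counts in 3 libraries and 4 in Abl1ko/IL3- replicate 2. A count of 0 allows up to 3 counts, and a difference between the groups was not detectable at such counts. The difference in H2 haplotype named above for H2-K1 and H2-D1 also concerns H2-Aa and H2-Ab1. Its part in their counts was not tested. The FPKM of Cd74 was 76.9 to 291 times that of H2-Aa.

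7 of the 10 genes lie within chr17:33915899-35267499, the H2 region, and they did not share 1 pattern over the libraries. H2-D1 was higher in both libraries without IL-3, H2-K1 was highest in Abl1ko/IL3+ replicate 1, and Tapbp and H2-Aa were highest in Abl1ko/IL3- replicate 2. Among the 9 genes tested, 4 were highest in Abl1ko/IL3+ replicate 1, 4 in Abl1ko/IL3- replicate 2, 1 in Abl1ko/IL3- replicate 1 and 0 in Abl1ko/IL3+ replicate 2. Of all genes tested 31.8%, 16.8%, 23.1% and 28.3% were highest in those libraries, in the same order.

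The genes whose centred log2 CPM over the 4 libraries lay nearest to that of H2-K1 were Tmem147os, Prex1 and Cbx3-ps7, at Euclidean distances of 0.0303, 0.0331 and 0.037. Nearest to Cd74 were Prkar2b, Ckap4 and Fosl1, at 0.256, 0.322 and 0.349. The distances rest on 4 libraries and are a description only.

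None of the other class I genes passed the adjusted threshold. Of 15 class I relatives in the file 12 passed the filter, and 5 had a positive and 7 a negative log2 fold change, with a median of -0.10. Without Abl1ko/IL3+ replicate 1, 8 were positive and 4 negative, with a median of 0.59. The 4 with the highest FPKM were H2-T23, H2-T22, H2-T24 and H2-M3, which encode nonclassical class I heavy chains. H2-T23 had 171 and 275 CPM with IL-3 and 183 and 190 CPM without. H2-T24 had 145 and 33.5 CPM with IL-3 and 24.4 and 38.1 CPM without, so that Abl1ko/IL3+ replicate 1 stood above the others as for H2-K1 and Ciita, and its log2 fold change of -1.51 was -0.08 without that library. H2-T22 and H2-M3 had log2 fold changes of -0.02 and -0.17. H2-M5 had 0 counts in both libraries with IL-3 and 23 and 12 without, with an unadjusted p of 0.0147 and an adjusted p of 0.727 (edgeR). H2-M5 passed the filter through the libraries without IL-3 alone, so these p-values give no support for a change. It left the test under 10 counts in every library.

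Genes that supply and load peptides, 12 of 12 of which passed the filter, had 5 positive and 7 negative log2 fold changes with a median of -0.13, and 0 had an unadjusted p under 0.05. The median was 0.0014 without Abl1ko/IL3- replicate 1. Groups did not overlap for 1 higher and 2 lower genes of the 12, beside 19.4% and 17.9% of all genes tested. Calr, the chaperone calreticulin, was the most abundant, with 4481 and 4567 CPM with IL-3 and 3410 and 2916 CPM without. Both libraries without IL-3 were lower, and the log2 fold change was -0.52 (edgeR adjusted p = 0.901). Pdia3, the disulfide isomerase of the loading complex, had 538 and 431 CPM with IL-3 and 715 and 650 CPM without. Both libraries without IL-3 were higher, and the log2 fold change was 0.49 (edgeR adjusted p = 0.898). Psme1, a proteasome activator subunit, had a log2 fold change of -0.26 with overlapping groups.

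With all 4 libraries the class II accessory genes had the lowest median of the lists, and none passed the adjusted threshold. Of 16 in the file 11 passed the filter, and 7 of these had a negative log2 fold change, with a median of -0.82 against -0.03 over all genes tested. Groups did not overlap for 6 lower and 1 higher gene of 11, beside 17.9% and 19.4% of all genes tested. Without Abl1ko/IL3+ replicate 1, in which 7 of the 11 were highest, the median was -0.21, with 6 of 11 negative. H2-Oa, a chain of the DO molecule that restrains class II loading, had 58.6 and 45.1 CPM with IL-3 and 25.03 and 29.4 CPM without. Its log2 fold change was -0.93 (SE 0.34, edgeR unadjusted p = 0.0399, adjusted p = 0.832). An antisense gene, BC051537, covers 22.8% of H2-Oa exon bases, and its part was not tested. H2-Ob, the other DO chain, had 86.3 and 4.80 CPM with IL-3 and 17.7 and 33.9 CPM without, and these groups overlapped.

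The DM genes, which encode the molecule that exchanges peptides on class II, were named after their values had been seen. H2-DMb1 was counted 876 and 100 times with IL-3 and 82 and 69 times in its absence, H2-DMb2 had 622 and 112 with and 32 and 96 without, and H2-DMa had 225 and 101 with and 57 and 78 without. Abl1ko/IL3+ replicate 1 was the highest library for all 3 genes, and the groups did not overlap. Their log2 fold changes were -2.41, -2.33 and -1.08 with edgeR adjusted p of 0.854, 0.85 and 0.876, and without that library they were -0.33, -0.81 and -0.53. Ifi30, a lysosomal thiol reductase, had 6.64 and 7.16 CPM with IL-3 and 12.7 and 9.86 CPM without, with a log2 fold change of 0.71 (edgeR adjusted p = 0.886). March8, a ubiquitin ligase that downregulates class II, had a log2 fold change of -0.58 (edgeR adjusted p = 0.895).

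Regulators of the genes were 25, all of which passed the filter, with 17 negative and 8 positive log2 fold changes and a median of -0.27. In this list 4 genes had an unadjusted p under 0.05, 2 in each direction, beside 5.91% of all genes tested, and 0 passed the adjusted threshold. The 2 higher genes include Irf4, whose p-value gives no support for a change because of how it passed the filter. Nlrc5, the class I counterpart of Ciita, was counted 674 and 96 times in the libraries with IL-3, and 32 and 46 times in the other two. Like Ciita, it was highest in Abl1ko/IL3+ replicate 1 and lower in both libraries without IL-3. The log2 fold change was -3.06 (SE 0.99, edgeR unadjusted p = 0.0269, adjusted p = 0.785), and it was -1.25 without that library. The class I members H2-K1, H2-D1 and B2m had log2 fold changes of -0.62, 0.35 and -0.16 in the same comparison.

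Nfya, the regulatory subunit of NF-Y, had 80.2 and 107 CPM with IL-3 and 3.34 and 3.24 CPM without. The log2 fold change was -4.83 (SE 0.38, edgeR unadjusted p = 5.7e-05, adjusted p = 0.335). The adjusted p of Nfya in DESeq2 was 9.57e-24. Nfyb and Nfyc, the other NF-Y subunits, were named after their values had been seen. They had log2 fold changes of -0.20 and 0.13 (edgeR adjusted p of 0.969 and 0.986). CCAAT, the NF-Y motif, is in all 6 promoters searched and in 37.4% of all promoters. The part of Nfya in the levels of these genes was not tested. Creb1, a CREB family factor, had 4.44 and 8.85 CPM with IL-3 and 43.1 and 41.6 CPM without. Its log2 fold change was 2.67 (SE 0.48, edgeR adjusted p = 0.692, DESeq2 adjusted p = 0.000228). Irf4, an interferon regulatory factor, was counted 8 and 8 times with IL-3, and 29 and 285 times in its absence, with adjusted p of 0.727 in edgeR and 0.0194 in DESeq2. Its edgeR log2 fold change was 4.33, and it was 2.15 without Abl1ko/IL3- replicate 2. Irf4 passed the filter on low counts through the libraries without IL-3 alone, so its p-values give no support for a change. It left the test under 10 counts in every library. For Nfya, Creb1 and Irf4 both libraries without IL-3 stood apart from both with it. Among the 25 regulators this held for 4 higher and 10 lower genes, beside 19.4% and 17.9% of all genes tested. In DESeq2 Nfya, Creb1 and Irf4 were the 3 of 60 pathway genes called, beside 1.64% of all genes tested. Irf4 is part of both of these counts, and its part in them gives no support, for the reason given above. The most abundant regulators, Jak1, Jak2, Ifngr2 and Spi1, had log2 fold changes of -0.48, -0.25, -0.32 and -0.38, with edgeR adjusted p of 0.93 or more.

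**Figure D4:**
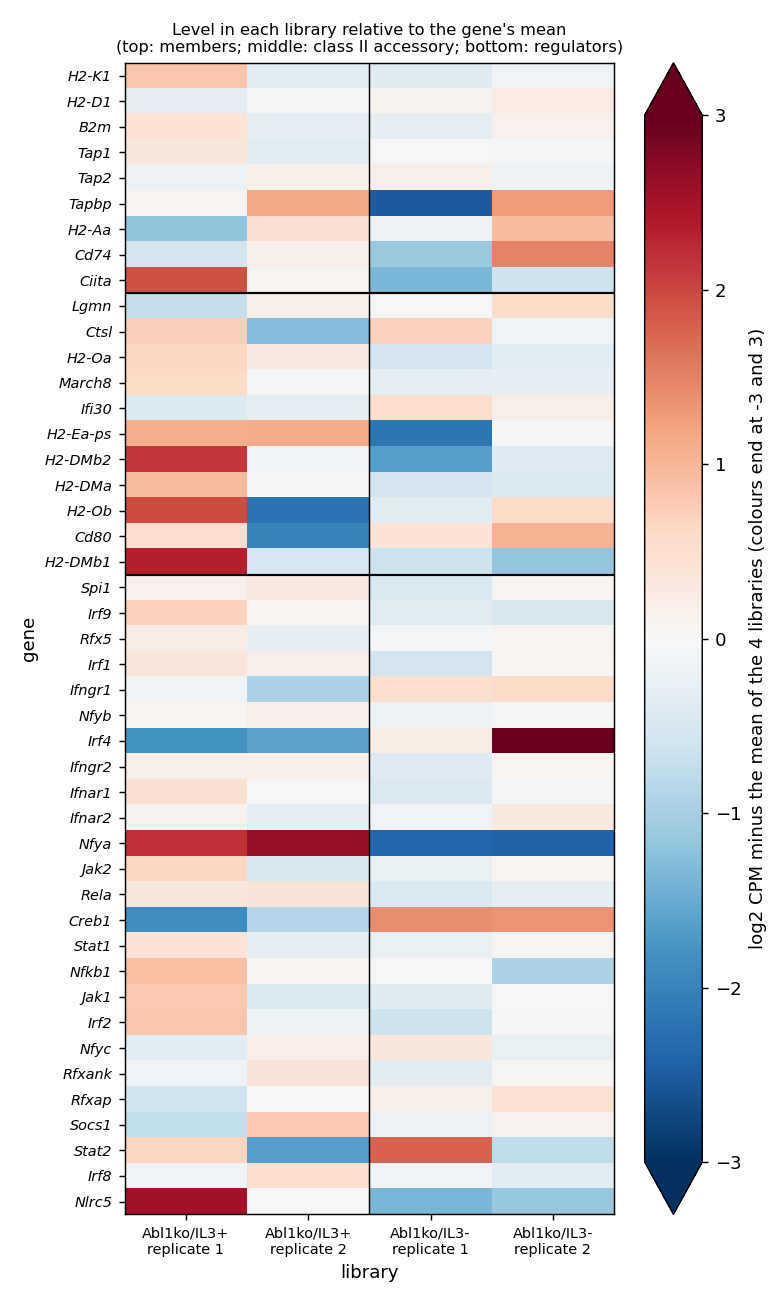
Log2 CPM minus the gene's mean over the 4 libraries for the 9 members tested, the class II accessory genes and the regulators, 1 row per gene and 1 column per library, in colours that end at -3 and 3. Ciita, H2-DMb1, H2-DMb2, H2-Ob and Nlrc5 each have their highest value in Abl1ko/IL3+ replicate 1. Tapbp is low in Abl1ko/IL3- replicate 1, and Nfya and Creb1 split the groups in opposite directions.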

How the data were processed

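RNA-seq of 4 libraries, 2 per group, was analysed. Per the labels, total RNA was depleted of ribosomal RNA. Per the paper's methods, the authors used an Illumina HiSeq platform, aligned reads to GRCm38 (mm10 annotation) with Rsubread and summarized them with featureCounts. The submitters' processing notes name mm10 too, but STAR and Cuffdiff as tools. Versions and the strand setting are not given in the sources used here. The authors deposited raw counts per gene, and also FPKM values for which no tool is stated. Samples were grouped by label.

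After filterByExpr and TMM scaling, counts were tested in edgeR 4.0.16 (quasi-likelihood F test, two-sided, Benjamini-Hochberg over 16535 genes, threshold 0.05) in R 4.3.3. CPM are TMM-normalized. Standard errors came from the fold change and the F statistic. Library totals were 48953174 to 60382588 counts, the floor was 3 counts, and intervals cover counting and replicate error of these libraries. Counts of every pair of libraries differed beyond sampling noise (chi-square over genes), so none was merged. The second deposited count table held identical counts. Same-numbered libraries did not deviate together (r = -0.194).

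Alternatives were DESeq2 1.42.0, library size only, no filter, 10 counts in every library, limma 3.58.1 on log2(FPKM + 1) and log2(FPKM + 0.1), a replicate block, and each library left out. Steps were tested on simulated data with low spread between libraries and large changes. How they perform at the spread seen here was not tested. Promoters came from RefSeq, and overlaps and shared 50-base stretches from GENCODE annotation.

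The members, pathway lists and markers were chosen with earlier results of these data known. Named were all 10 members, in each pathway list the 4 genes of highest mean FPKM and genes past the adjusted threshold (or, with none, an unadjusted p of 0.05), and the 3 nearest patterns of H2-K1 and Cd74. Of the class I relatives listed 5, and of the class II accessory genes 1, were not analysed here.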

Additional observations from a re-analysis of the deposited data

How the results depend on the processing

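Of the 10 genes, 0 passed the adjusted threshold under every alternative run, and of 107 member values under alternatives 97 kept their direction and side. Over all genes edgeR called 0 (978 at an unadjusted p under 0.05), DESeq2 called 271, of which 111 were higher and 160 lower, and limma called 0 on either FPKM scale. Leaving out 1 library gave 0 to 15 genes, with 15 without Abl1ko/IL3- replicate 1. Of the pathway genes edgeR called 0 (6 unadjusted) and DESeq2 called 3. The 6 include H2-M5 and Irf4 and the 3 include Irf4, which passed the filter through the libraries without IL-3 alone. With limma on log2(FPKM + 0.1) the log2 fold change of Tap1 was 0.00085. With 1 library left out the log2 fold change ran from -1.09 to 0.11 for H2-K1, from -0.47 to 0.25 for B2m, from -0.34 to 0.32 for Tap1, from -0.15 to 0.18 for Tap2, from -3.21 to 0.57 for Tapbp, from -0.96 to 1.65 for Cd74, from 0.0048 to 2.15 for H2-Aa and from -2.93 to -1.04 for Ciita. Ciita had log2 fold changes of -0.29 and -1.17 with limma on log2(FPKM + 1) and log2(FPKM + 0.1). Where an alternative left 1 library in a group, that library was assumed to vary like the other group. The cause of these changes was not tested. H2-Aa left the test under 10 counts in every library. With 2 libraries per group and 0 to 23 counts, H2-Aa and H2-Ab1 are limited by their low counts, the cause of which was not tested.

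With the replicate number as a block, edgeR called 0 genes (548 unadjusted), 0 members and 0 pathway genes, and Ciita had a log2 fold change of -2.04 (unadjusted p = 0.104, edgeR). The labels do not say that the numbers pair samples and same-numbered libraries correlated at -0.194, so a crossed pairing was added after seeing the data, and it also called 0 genes (1136 unadjusted).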
